A study of Mus musculus with 6 samples.

Results

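The 10 genes described here encode the transcriptional machinery of the circadian clock and its direct outputs. They were chosen by symbol and by no rule on their values, but with earlier results of these data known. They are *Arntl*, *Clock*, *Per1*, *Per2*, *Per3*, *Cry1*, *Nr1d1*, *Nr1d2*, *Dbp* and *Ciart*. All 10 were found among the 55401 gene identifiers of the deposited counts, and all 10 were among the 20636 genes with enough reads to be tested. The question was whether tibias of Atrx-cKO and control mice differed in these genes, and whether the activators and repressors of the clock stood in the same relation in every library, which bears on the time of day at which bones were taken.

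RNA was sequenced from the tibias of 6 male mice aged 8 weeks, 3 of them Atrx-cKO and 3 control. Atrx-cKO mice were *Osterix-Cre; Atrx* f/y and carried the floxed allele with a Cre transgene that is driven by the *Osterix* promoter in preosteoblasts and is kept off by doxycycline. Doxycycline was given to 3 weeks of age. Controls were *Atrx* f/y without Cre, so the transgene and the deletion cannot be told apart in these libraries. The whole bone was ground, so marrow and any attached tissue were included, and the hour of collection was not given in the sources used here. Each library had between 50977777 and 70571655 reads on genes. *Atrx* itself had 163 ± 9.54 CPM (counts scaled to library size) in Atrx-cKO and 169 ± 4.98 in control tibias (SD, n = 3), a whole-bone value that gives no check of a deletion in osteoblasts. By RT-PCR the paper reported less *Atrx* in Atrx-cKO tibias, and a faint smaller transcript from recombination of an exon. A count over the whole gene does not single out that exon. All 8 osteoblast markers looked at were present in every library. The summed level of 10 skeletal muscle markers was 13100 CPM in control replicate 3 and from 774.5 to 2685 CPM in the other 5 libraries.

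The circadian clock is a feedback loop of transcription that runs in nearly every cell. ARNTL (also called BMAL1) and CLOCK bind DNA as a pair at E-boxes and switch on the *Per* and *Cry* genes, whose proteins return to the nucleus and repress that pair. The same pair switches on *Nr1d1* and *Nr1d2*, which encode the REV-ERB receptors, and these repress *Arntl* through ROR elements. *Arntl* messenger RNA therefore peaks at about the opposite time of day from *Nr1d1* and *Dbp* in rhythmic tissues, and bone and marrow cells are among the tissues with such rhythms.

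Promoter sequences carry the elements through which the members control each other, and the stretches that hold them are shown for that reason. RefSeq windows of 300 bases (250 before to 50 after a start site, GRCm38.p6) were matched for 9 of the 10 members, all but *Per2*. These 9 members had 13 windows, so some had more than 1. The E-box CACGTG stood in 3 of the 13 windows, for 3 members, and in 7.15% of all 32851 windows searched. The D-box, searched as TTATGTAA or TTACGTAA, stood in 1 of the 13 windows and in 1.06% of all windows. The ROR element core, searched as TAGGTCA or TGGGTCA, stood in 1 of the 13 windows and in 6.45% of all windows. The cAMP response element TGACGTCA stood in none of the 9 members' windows and in 1.79% of all. All motifs were searched on both strands, and none of these matches shows binding. The capitals mark the motif in each stretch below, written 5′ to 3′ on the strand of the gene, and positions count the start site as 0. *Ciart* has 3 E-boxes, at -116, -58 and -44 (chr3:95882259-95882352, minus strand), *Cry1* has 1 at -60 (chr10:85185092-85185131, minus strand) and *Per1* has 1 at -166 (chr11:69098766-69098805, plus strand). *Per3* has 2 D-boxes, at -205 and -158 (chr4:151044806-151044880, minus strand), and *Arntl* has a ROR element core at 30 bases after the start (chr7:113207533-113207556, plus strand).
Ciart: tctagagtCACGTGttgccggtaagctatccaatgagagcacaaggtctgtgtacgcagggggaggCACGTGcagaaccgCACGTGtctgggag
Cry1: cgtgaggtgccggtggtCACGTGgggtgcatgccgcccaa
Per1: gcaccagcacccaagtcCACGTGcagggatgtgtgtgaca
Per3: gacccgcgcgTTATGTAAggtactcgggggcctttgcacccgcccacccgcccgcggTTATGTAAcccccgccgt
Arntl: gcagaaagTAGGTCAgggacggag

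No clock gene passed the test between Atrx-cKO and control tibias, and the libraries of the genotypes overlapped for all 10. With edgeR (quasi-likelihood test, Benjamini-Hochberg over all tested genes), 0 of 10 members passed an adjusted p of 0.05, where 3 of 20636 genes passed (0.0145%). At an unadjusted p under 0.05 the count was also 0 of 10, against 3.64% of tested genes. Groups that did not overlap in CPM were found for 0 of 10 members and for 8.31% of tested genes. DESeq2 called 0 of 10, against 0.142% of the genes it tested. The log2 fold change of Atrx-cKO over control was above 0 for 6 members and below 0 for 4, from -0.18 to 0.20, with a median of 0.079 beside 0.0050 over all tested genes. In whole tibia, fewer cells of a type and less RNA per cell cannot be told apart.

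The activators ARNTL and CLOCK form the pair that drives the loop. *Arntl* (ENSMUSG00000055116, chr7:113207465-113314126 of GRCm38, plus strand) had 24.99, 19.6 and 25.7 CPM in Atrx-cKO replicates 1 to 3 and 22.3, 31.4 and 25.8 CPM in control replicates 1 to 3. The lowest value was in Atrx-cKO replicate 2 and the highest in control replicate 2. The log2 fold change was -0.18 (SE 0.16, 95% interval -0.54 to 0.18, adjusted p = 0.992 from edgeR). *Clock* (ENSMUSG00000029238, chr5:76209868-76304792, minus strand), which encodes the partner of ARNTL, had 57.5, 64.0 and 68.0 CPM in Atrx-cKO and 59.6, 71.9 and 65.7 CPM in control tibias. It was also highest in control replicate 2, and its log2 fold change was -0.058 (SE 0.098, 95% interval -0.29 to 0.17, adjusted p = 0.992 from edgeR).

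The *Per* genes encode the partners of CRY in the repressor complex. *Per1* (ENSMUSG00000020893, chr11:69095217-69109960, plus strand) had 20.3, 65.9 and 26.3 CPM in Atrx-cKO and 33.7, 20.5 and 47.8 CPM in control tibias. Atrx-cKO replicate 2 was 3.24 times Atrx-cKO replicate 1, while Atrx-cKO replicate 1 and control replicate 2 were nearly equal. The log2 fold change between genotypes was 0.14 (SE 0.46, 95% interval -0.94 to 1.22, adjusted p = 0.994 from edgeR). *Per2* (ENSMUSG00000055866, chr1:91415982-91459324, minus strand) had 8.82, 19.1 and 15.2 CPM in Atrx-cKO and 17.3, 10.8 and 10.3 CPM in control tibias. *Per3* (ENSMUSG00000028957, chr4:151003652-151044665, minus strand) had 18.6, 38.4 and 33.7 CPM in Atrx-cKO and 33.4, 20.8 and 26.4 CPM in control tibias. Each of the 3 genes was lowest in Atrx-cKO replicate 1 and highest in Atrx-cKO replicate 2, so the genotype held both ends of the range. Log2 fold changes were 0.17 for *Per2* (SE 0.30, 95% interval -0.54 to 0.87) and 0.17 for *Per3* (SE 0.28, 95% interval -0.48 to 0.81), and the adjusted p was 0.992 for each by edgeR.

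*Cry1*, whose protein is the strong repressor of the loop, behaved unlike the *Per* genes. *Cry1* (ENSMUSG00000020038, chr10:85131700-85185064, minus strand) had 21.3, 16.7 and 18.0 CPM in Atrx-cKO and 19.7, 18.9 and 18.8 CPM in control tibias. Its highest library, Atrx-cKO replicate 1, was the lowest for the *Per* genes, and its lowest, Atrx-cKO replicate 2, was the highest for them. The whole range was 1.28-fold, and the log2 fold change was -0.033 (SE 0.11, 95% interval -0.30 to 0.23, adjusted p = 0.994 from edgeR).

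**Figure D1:**
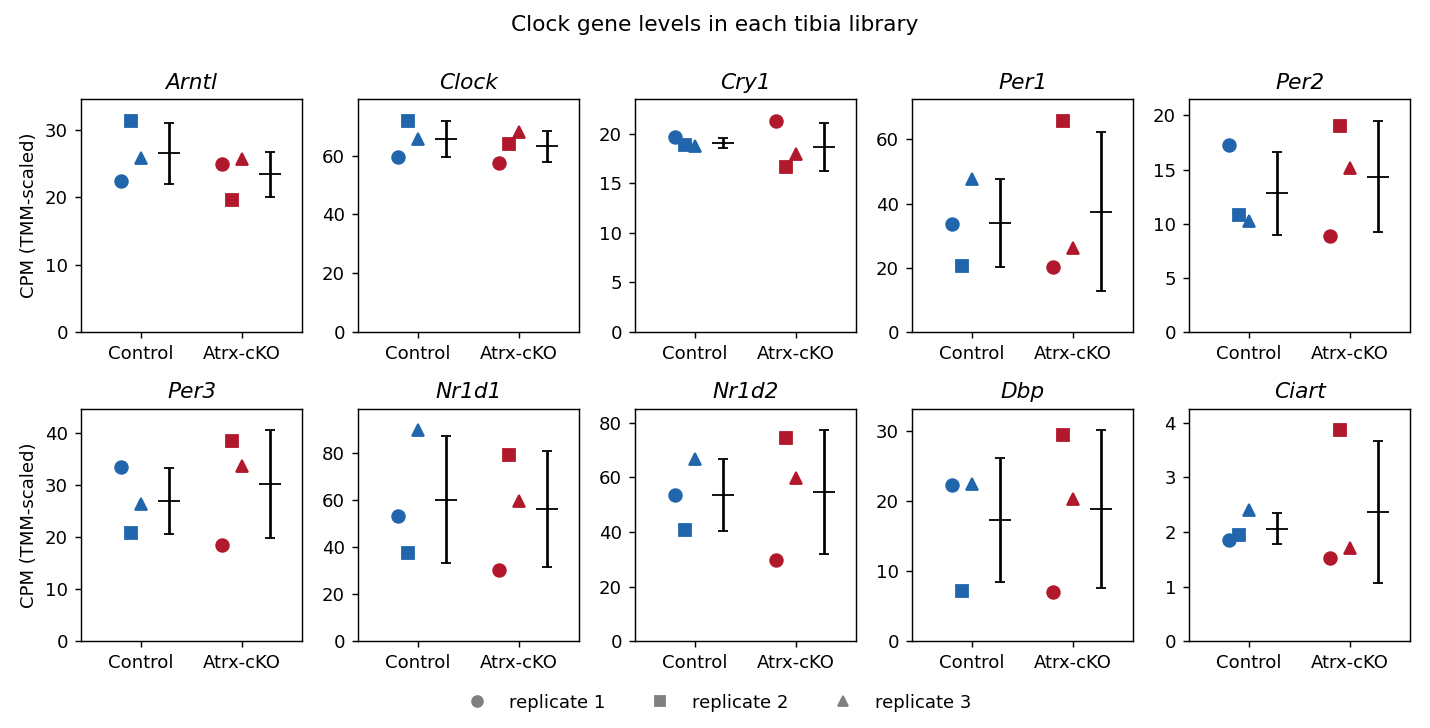
Clock gene levels as TMM-scaled CPM (vertical axes, starting at 0) in control (blue) and Atrx-cKO (red) tibias, with a symbol for each replicate and the mean ± SD (n = 3) in black beside it. *Dbp* spans 7.01 to 29.3 CPM within Atrx-cKO alone, *Cry1* spans 16.7 to 21.3 CPM over all 6 libraries, and the genotypes overlap in every panel.

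The REV-ERB genes, the repressors of *Arntl*, varied together. *Nr1d1* (ENSMUSG00000020889, chr11:98767932-98775333, minus strand) had 30.3, 79.1 and 59.6 CPM in Atrx-cKO and 53.3, 37.3 and 89.8 CPM in control tibias. *Nr1d2* (ENSMUSG00000021775, chr14:18204054-18239127, minus strand) had 29.6, 74.2 and 59.8 CPM in Atrx-cKO and 53.5, 40.5 and 66.6 CPM in control tibias. The lowest libraries were Atrx-cKO replicate 1 and then control replicate 2 for each gene. The highest was control replicate 3 for *Nr1d1* and Atrx-cKO replicate 2 for *Nr1d2*. The log2 fold changes were -0.093 (SE 0.40, 95% interval -1.02 to 0.83, adjusted p = 0.996 from edgeR) for *Nr1d1* and 0.027 (SE 0.32, 95% interval -0.72 to 0.77, adjusted p = 0.998 from edgeR) for *Nr1d2*. The 3′ end of *Nr1d1* lies over that of *Thra* on the opposite strand, with 263 exonic bases shared (8.55% of *Nr1d1*), and whether reads were counted by strand was not given in the sources used here. *Thra* moved far less, from 79.0 to 112 CPM.

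*Dbp*, a transcription factor that carries the rhythm to metabolic genes through D-boxes, varied most. *Dbp* (ENSMUSG00000059824, chr7:45705088-45710203, plus strand) had 7.01, 29.3 and 20.3 CPM in Atrx-cKO and 22.3, 7.09 and 22.4 CPM in control tibias. Each genotype held 1 library near 7 CPM and 2 libraries at 20.3 CPM or more. The ratio of the highest to the lowest library was 4.18 within Atrx-cKO and 3.15 within control, and the log2 fold change between genotypes was 0.13 (SE 0.56, 95% interval -1.18 to 1.44, adjusted p = 0.996 from edgeR). *Sphk2* shares 539 exonic bases with *Dbp* on the opposite strand (18% of *Dbp*) and ranged from 35.1 to 48.2 CPM. *Ciart*, also called Chrono, encodes a repressor of the activator pair (ENSMUSG00000038550, chr3:95878503-95882251, minus strand) and was the least abundant member. It had 1.52, 3.87 and 1.72 CPM in Atrx-cKO and 1.86, 1.94 and 2.40 CPM in control tibias, so Atrx-cKO replicate 2 stood above the other 5 libraries. The log2 fold change was 0.20 (SE 0.37, 95% interval -0.66 to 1.06, adjusted p = 0.992 from edgeR).

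**Figure D2:**
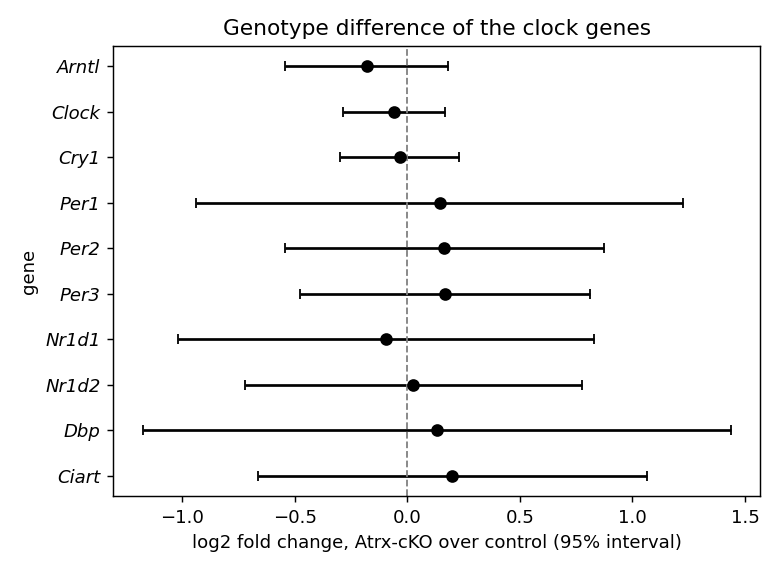
Log2 fold change of Atrx-cKO over control (horizontal axis) for each clock gene, with the point at edgeR's estimate and the bar at its 95% interval (3 libraries a genotype). All 10 intervals cross 0, the narrowest ones belong to *Clock* (-0.29 to 0.17) and *Cry1* (-0.30 to 0.23) and the widest to *Dbp* (-1.18 to 1.44).

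These intervals set what the comparison could show in whole-tibia RNA, to which the cells with Cre gave only a part. A change within those cells alone was not tested. For *Clock* and *Cry1* a change of 1 on the log2 scale lay outside the interval in either direction, and the same held for *Arntl*, *Per2*, *Per3* and *Nr1d2*. For *Dbp* such a change lay inside the interval in both directions, for *Per1* and *Ciart* in the upward direction and for *Nr1d1* in the downward direction. Counting error was small beside these ranges. The fewest reads for any member in a library were 89, for *Ciart* in Atrx-cKO replicate 1, and the 95% Poisson intervals of the highest and the lowest library did not overlap for any of the 10 members, where the intervals cover counting error only.

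Levels were compared between genes only after division by exonic length, as CPM per kb averaged over the 6 libraries. *Nr1d1* was the most abundant at 18.9 ± 7.52 CPM per kb (SD, n = 6), followed by *Nr1d2* at 9.99 ± 3.07, and each exceeded the next gene in 6 of 6 libraries. *Per1* at 6.35 ± 3.19, *Dbp* at 6.03 ± 3.03 and *Cry1* at 5.66 ± 0.471 followed, and each of the first 2 exceeded its next neighbor in only 4 of 6 libraries, so this order did not hold beyond the spread. *Clock* stood at 4.70 ± 0.389 and exceeded *Arntl*, at 3.32 ± 0.525, in 6 of 6 libraries. *Arntl* exceeded *Per3*, at 2.97 ± 0.822, in 3 of 6. The last in order were *Per2* at 2.32 ± 0.712 and *Ciart* at 0.980 ± 0.381.

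The members varied between mice of the same genotype more than most genes did. The SD of log2(CPM + 0.5) within genotype was 0.976 for *Dbp*, which is at percentile 98.9 of the 20636 tested genes. It was 0.754 for *Per1* (percentile 98.3), 0.669 for *Nr1d1* (97.9), 0.546 for *Nr1d2* (96.7), 0.478 for *Per2* (95.4), 0.455 for *Per3* (94.7) and 0.444 for *Ciart* (94.3). The activators and *Cry1* varied less, with an SD of 0.226 for *Arntl* (percentile 65.9) and 0.128 for each of *Clock* and *Cry1* (percentile 32.0 each). The median of the 10 was 0.467, beside 0.175 over all tested genes. Set among the tested genes nearest in mean level, 500 on either side, *Per1* was at percentile 99.4, *Nr1d1* at 99.3, *Nr1d2* at 98.9, *Dbp* at 98.7, *Per3* at 98 and *Per2* at 95. *Ciart* was lower on this scale, at 85.4, and *Arntl* was higher, at 84.0. Without Atrx-cKO replicate 2 the SD was 0.464 for *Per1* and 0.130 for *Ciart*, and without Atrx-cKO replicate 1 it was 0.255 for *Per3*, 0.295 for *Nr1d2* and 0.0595 for *Cry1*. All of these values are a description with no test.

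**Figure D3:**
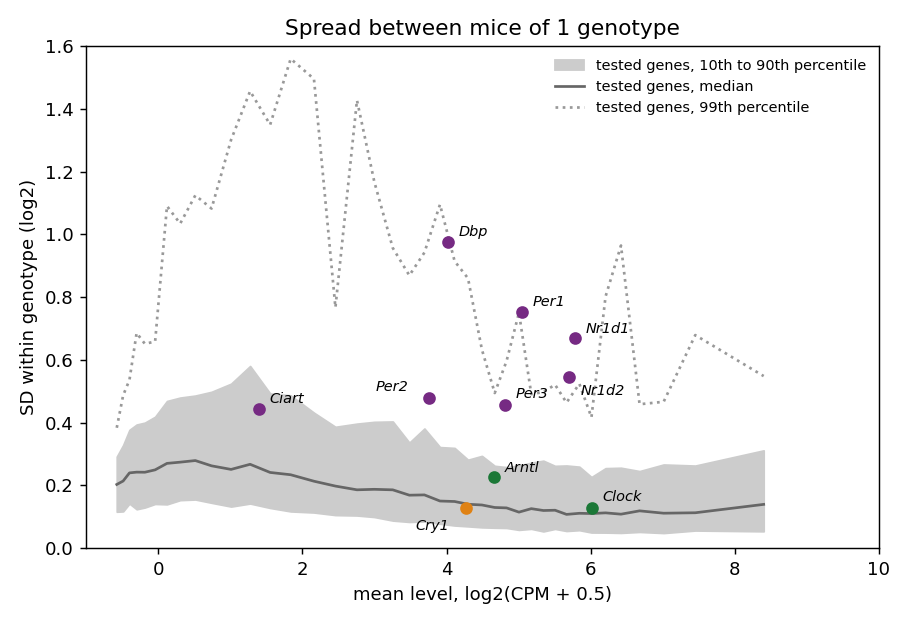
SD within genotype of log2(CPM + 0.5) (vertical axis) against mean level (horizontal axis) for the clock genes (points), with the median and the percentile bands of all tested genes at each level. The 6 genes *Dbp*, *Per1*, *Nr1d1*, *Nr1d2*, *Per2* and *Per3* lie above the band that ends at the 90th percentile, and *Clock*, *Cry1* and *Arntl* lie within it.

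The variation followed a shared order of libraries. Taking *Per1*, *Per2*, *Per3*, *Nr1d1*, *Nr1d2*, *Dbp* and *Ciart* as the 7 outputs of the activator pair, Atrx-cKO replicate 1 was the lowest library for 7 of 7. Atrx-cKO replicate 2 was the highest for 6 of 7, all but *Nr1d1*. Control replicate 2 was the second lowest for 5 of 7, namely *Per1*, *Per3*, *Nr1d1*, *Nr1d2* and *Dbp*. Among the 21 pairs of these genes, Pearson's r of log2(CPM + 0.5) over the 6 libraries ranged from 0.501 to 0.961 with a median of 0.765, and 21 of 21 were above 0, as a description in which all pairs share the same libraries. The libraries with the lowest and the highest outputs were thus of the same genotype.

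Atrx-cKO replicate 2, the library lowest in *Arntl*, was the highest for 6 of the 7 outputs, and control replicate 2, the highest in *Arntl*, was the second lowest for 5 of 7 but the third for *Per2* and the fourth for *Ciart*, counted from the lowest. Over the 6 libraries, r with *Arntl* was below 0 for 7 of the other 9 members, the 7 outputs, and above 0 for *Clock* and *Cry1*. Pearson's r was -0.73 for *Per1* (Spearman's rho -0.43, exact permutation p = 0.104 and 0.419), -0.71 for *Dbp* (rho -0.43, p = 0.119 and 0.419), and -0.71 for *Per3* (rho -0.54, p = 0.117 and 0.297). It was -0.69 for *Per2* (rho -0.60, exact permutation p = 0.124 and 0.242), -0.60 for *Ciart* (rho -0.086, p = 0.235 and 0.919), -0.50 for *Nr1d2* (rho -0.31, p = 0.306 and 0.564) and -0.47 for *Nr1d1* (rho -0.086, p = 0.361 and 0.919). For *Clock* r was 0.57 (rho 0.71, exact permutation p = 0.236 and 0.136), and for *Cry1* it was 0.36 (rho 0.14, p = 0.506 and 0.803).

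None of the 9 relations passed the exact permutation test after Benjamini-Hochberg adjustment over the 9, with adjusted p from 0.278 to 0.506 for r and from 0.755 to 0.919 for rho. An r as far below 0 as that of *Per1* was reached by 3.98% of all tested genes, that of *Dbp* by 4.58%, that of *Per3* by 4.81%, that of *Per2* by 5.44% and that of *Nr1d1* by 15.2%. The median r with *Arntl* was -0.60 over the 9 members and 0.014 over all tested genes.

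The relation was computed again without the 2 libraries at the ends of *Arntl*. Leaving them out narrows the range of *Arntl*, so a smaller r there cannot show what the relation rests on. Without Atrx-cKO replicate 2 and control replicate 2, which are farthest from the median of *Arntl*, r was -0.0041 for *Per1*, -0.17 for *Dbp*, -0.32 for *Per3* and -0.59 for *Per2*. It was above 0 for *Nr1d1* (0.23), *Nr1d2* (0.094) and *Ciart* (0.16), turned below 0 for *Cry1* (-0.32) and was 0.58 for *Clock*. For *Clock* r was 0.15 without control replicate 2 alone and 0.24 with CPM from plain library sizes. With plain library sizes r was -0.89 for *Per1*, -0.74 for *Dbp*, -0.65 for *Per3* and -0.58 for *Per2*. With 1 library left out r ran from -0.87 to -0.43 for *Per1*, from -0.89 to -0.49 for *Dbp* and from -0.91 to -0.53 for *Per3*. With each value centred on its genotype mean, r was -0.79 for *Per1*, -0.77 for *Dbp*, -0.71 for *Per3*, -0.69 for *Per2* and -0.57 for *Nr1d1*, and 3 libraries within a genotype are too few for an r of their own.

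**Figure D4:**
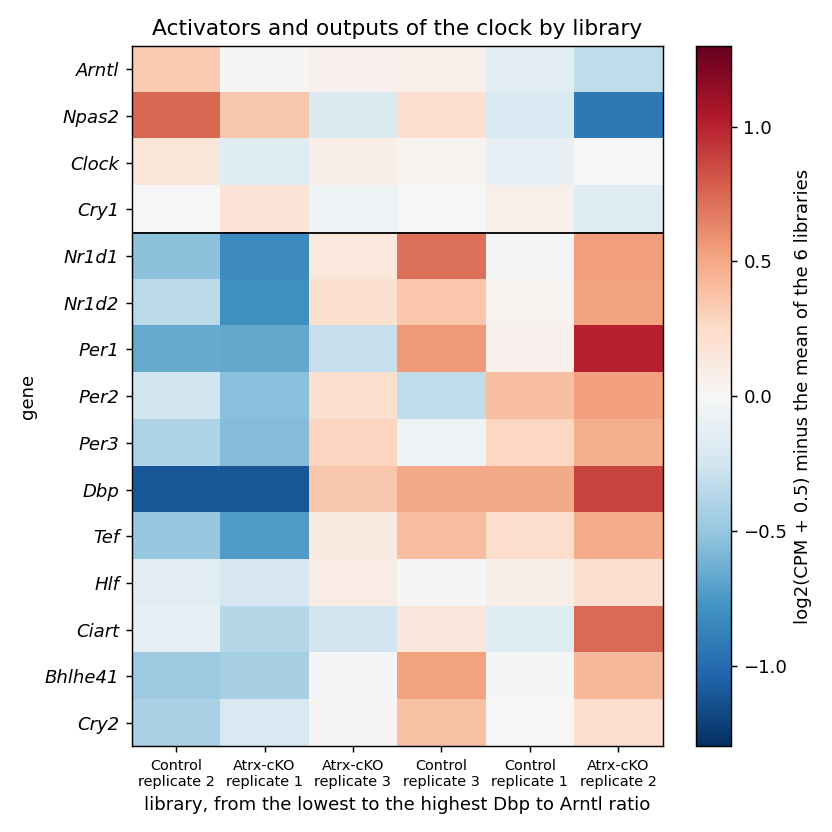
Level of each gene in each library, as log2(CPM + 0.5) minus its mean over the 6 libraries (color scale), for activators and *Cry1* above the line and for outputs and further clock genes below it. Libraries run from the lowest to the highest *Dbp* to *Arntl* ratio, control replicate 2 and Atrx-cKO replicate 1 are low in outputs, and Atrx-cKO replicate 2, at the far right, is low in *Arntl* and *Npas2*.

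Ratios within a library do not depend on its depth, and they set an output against an activator within each bone. The CPM ratio of *Dbp* to *Arntl* was 0.281, 1.497 and 0.789 in Atrx-cKO replicates 1 to 3 and 0.998, 0.226 and 0.866 in control replicates 1 to 3. Each genotype thus held 1 library with a low ratio, and the highest and the next to lowest ratio were both in Atrx-cKO. The log2 ratio, with 0.5 CPM added to each gene, averaged -0.51 ± 1.18 in Atrx-cKO and -0.76 ± 1.14 in control tibias (SD, n = 3), a difference of 0.25 (exact permutation test, two-sided p = 0.8, where 20 arrangements allow no p under 0.1). Without Atrx-cKO replicate 2 the difference was -0.29, and without control replicate 2 it was -0.41. The mean log2 level of the 7 outputs minus that of *Arntl* and *Clock* was -1.60, -0.14 and -0.95 in Atrx-cKO and -0.70, -1.71 and -0.76 in control tibias. This difference of arms averaged -0.90 ± 0.73 and -1.06 ± 0.57 (SD, n = 3), values that overlapped.

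Of 5 ratios computed among the outputs, 3 were near each other in 5 libraries and lay outside that range in control replicate 3. The ratio of *Nr1d1* to *Per2* was 3.43, 4.15 and 3.93 in Atrx-cKO and 3.09, 3.44 and 8.72 in control tibias. The ratio of *Nr1d2* to *Nr1d1* was 0.978, 0.938 and 1.002 in Atrx-cKO and 1.003, 1.09 and 0.742 in control tibias, and that of *Per3* to *Per2* was 2.10, 2.01 and 2.22 against 1.94, 1.92 and 2.57. Control replicate 3 held the highest *Nr1d1* and the second lowest *Per2* of all libraries, so its REV-ERB and *Per2* levels did not follow the order seen in the other bones. The ratio of *Per1* to *Per2* varied more among the other 5 libraries, at 2.30, 3.46 and 1.73 in Atrx-cKO and 1.95, 1.89 and 4.64 in control tibias. So did that of *Dbp* to *Per2*, at 0.795, 1.54 and 1.33 in Atrx-cKO and 1.29, 0.654 and 2.17 in control tibias. Control replicate 2 and Atrx-cKO replicate 1 were the lowest for *Dbp* to *Per2*. Both of these ratios were also highest in control replicate 3.

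Of the 10 skeletal muscle markers, 8 were highest in that library. The other two, *Myh1* and *Mb*, were highest in Atrx-cKO replicate 1 (181 and 76.7 CPM) and had 52.4 and 30.2 CPM in control replicate 3. All 10 were detected in every library, their mean log2(CPM + 0.5) was 9.27 in control replicate 3 and from 5.81 to 7.73 in the other 5, and all 10 had a log2 fold change below 0, with 0 passing the test. With the muscle marker level as a covariate 0 of 10 clock genes passed, and the log2 fold change of *Nr1d1* was 0.10 in place of -0.093. Without control replicate 3 it was 0.30. The part of muscle RNA in the ratios of control replicate 3 was not tested further. Atrx-cKO replicate 1, the library lowest in every output, was second in muscle markers (7.73), while control replicate 2, also low in outputs, was among the other libraries (6.45). Summed markers of other cell types overlapped between genotypes for osteocytes (1084 to 1237 CPM in Atrx-cKO and 1213 to 1345 in control), chondrocytes (734 to 1096 and 1036 to 1550), adipocytes (55.5 to 85.7 and 59.4 to 79.2), neutrophils (8841 to 12510 and 7267 to 10420), erythroid cells (3489 to 4528 and 2232 to 5744), B cells (348 to 434 and 245 to 544) and osteoblasts (114800 to 118300 and 108800 to 185200). By direction, 8 of 8 osteoblast markers had a log2 fold change below 0 (median -0.27), beside 10064 of 20636 tested genes. *Ibsp* alone did not overlap between genotypes (adjusted p = 0.992 from edgeR), 1 of 8 beside 8.31% of all tested genes. The 7 of 7 neutrophil and 6 of 6 erythroid markers were above 0 (medians 0.20 and 0.12), with none of them passing the test. Markers of 1 cell type share the same libraries, so they are not independent counts. *Ibsp* and *Col2a1* were named after their values were seen. Control replicate 2 was the lowest library for 6 of 6 erythroid and 5 of 5 B cell markers. It was the highest for 5 of 8 osteoblast markers, and control replicate 3 for the other 3. Control replicate 1 was the lowest for 4 of 8 osteoblast markers and the highest for 6 of 6 erythroid markers. Atrx-cKO replicate 1 was the highest for 6 of 7 neutrophil markers. The part of these cell types in the clock gene values was not tested.

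**Figure D5:**
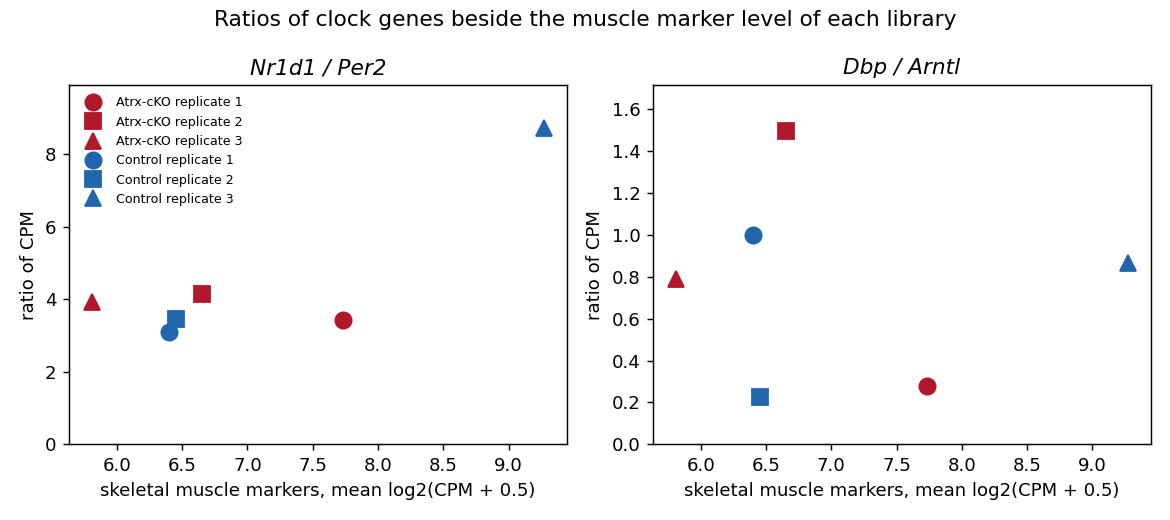
CPM ratio of *Nr1d1* to *Per2* (left) and of *Dbp* to *Arntl* (right) on axes from 0, against the mean log2(CPM + 0.5) of 10 skeletal muscle markers, with 1 symbol per library. Control replicate 3 lies apart at 8.72 and 9.27 on the left, while on the right the highest (1.497) and lowest (0.226) ratios lie at muscle levels of 6.65 and 6.45.

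The list of further clock transcription factors and repressors held no gene that passed between genotypes. Of 11 such genes 10 were tested, all but *Rorb*, and 0 passed the edgeR test, also at an unadjusted p under 0.05, with 3 log2 fold changes above 0, 7 below 0 and a median of -0.10. *Npas2*, which encodes a stand-in for CLOCK as the partner of ARNTL, had 16.6, 6.57 and 11.3 CPM in Atrx-cKO and 11.2, 22.1 and 15.1 CPM in control tibias. Like *Arntl*, it was lowest in Atrx-cKO replicate 2 and highest in control replicate 2, and its r with *Arntl* was 0.92 (rho 0.83, exact permutation p = 0.0222 and 0.0583, adjusted p = 0.326 and 0.499 over 44 genes, r = 0.48 without those 2 libraries). *Tef*, a D-box factor of the same family as *Dbp*, had 29.1, 68.2 and 53.1 CPM in Atrx-cKO and 57.4, 34.4 and 64.7 CPM in control tibias, lowest and highest in the same libraries as *Dbp*. *Hlf*, the third factor of that family, was also lowest in Atrx-cKO replicate 1 (4.65 CPM) and highest in Atrx-cKO replicate 2 (6.43 CPM).

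*Cry2* ranged from 13.1 to 23.3 CPM, *Bhlhe41* (DEC2) from 8.51 to 17.5 CPM and *Bhlhe40* (DEC1) from 35.4 to 52.2 CPM, and all 3 were lowest in control replicate 2, the second lowest in Atrx-cKO replicate 1 and highest in control replicate 3. For *Cry2* and *Bhlhe41* this was the order of libraries seen for *Nr1d1* except that the lowest pair changed places. *Nfil3*, the repressor at D-boxes, had 19.7 CPM in Atrx-cKO replicate 1 and from 11.4 to 13.2 CPM in the other 5 libraries, so it was highest where *Dbp*, *Tef* and *Hlf* were lowest. *Rora*, the activator of *Arntl* at ROR elements, had 29.0, 36.8 and 38.3 CPM in Atrx-cKO and 33.3, 46.5 and 52.1 CPM in control tibias, for a log2 fold change of -0.34 (SE 0.18, adjusted p = 0.992 from edgeR).

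Enzymes and cofactors that set the stability or activity of clock proteins formed the next list. All 14 on the list were tested, 0 passed the edgeR test, also at an unadjusted p under 0.05, the median log2 fold change was 0.010 and the median SD within genotype was 0.0910. *Csnk1d*, the kinase that marks PER proteins, ranged from 135 to 153 CPM. *Prkaa2*, a catalytic subunit of the AMP-activated kinase, had an SD of 0.963 within genotype, with control replicate 3 far above the rest. It had 30.7 CPM in that library, the one with most muscle marker RNA, and from 4.76 to 9.92 CPM in the other 5 libraries. Groups did not overlap for 1 of the 14, a share near the 8.31% of all tested genes. It was *Hdac3*, the deacetylase recruited by the REV-ERB receptors, at 55.3 to 56.8 CPM in Atrx-cKO and 50.3 to 54.9 CPM in control tibias (log2 fold change 0.11, SE 0.070, adjusted p = 0.992 from edgeR). These 3 were named after their values were seen.

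Among genes with rhythms in many tissues none passed between genotypes. All 10 on the list were tested, 0 passed the edgeR test, also at an unadjusted p under 0.05, and the median log2 fold change was 0.085. *Tspan4*, a tetraspanin, ran most strictly against *Arntl*, with 59.6, 63.9 and 58.4 CPM in Atrx-cKO and 61.8, 50.3 and 57.1 CPM in control tibias. Its r with *Arntl* was -0.96 (rho -1, exact permutation p = 0.00139 and 0.00278, the smallest that 720 pairings can give, adjusted p = 0.0611 and 0.122 over 44 genes) and -0.94 without the 2 libraries farthest from the median. *Usp2*, a deubiquitinase, had 14.2 CPM in control replicate 3, the library with most muscle marker RNA, and from 6.26 to 7.87 CPM in the other 5.

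Glucocorticoid-responsive genes were looked at because the hormone has a daily rhythm of its own. All 11 were tested, 0 passed the edgeR test, also at an unadjusted p under 0.05, and the median log2 fold change was 0.083. Atrx-cKO replicate 2, the library with most *Per1*, was the highest for 8 of the 11 and the lowest for *Mt1*, and control replicate 3 was the highest for the other 3, *Mt1*, *Mt2* and *Pdk4*. The highest in Atrx-cKO replicate 2 included *Tsc22d3* (101 CPM, from 40.5 to 68.6 CPM in the other 5), *Ddit4* (115 CPM, from 36.6 to 56.4 CPM) and *Klf9* (111 CPM, from 54.2 to 79.4 CPM). *Sgk1*, a kinase induced by the hormone, ranged from 38.2 to 49.97 CPM and was highest there too, with an r with *Arntl* of -0.94 (rho -0.83, exact permutation p = 0.00833 and 0.0583, adjusted p = 0.183 and 0.499 over 44 genes, r = -0.81 without the 2 libraries). Groups did not overlap for 1 of the 11, a share near the 8.31% of all tested genes. It was *Mt1*, a metallothionein, at 29.8 to 32.9 CPM in Atrx-cKO and 33.7 to 48.6 CPM in control tibias (log2 fold change -0.29, SE 0.15, adjusted p = 0.992 from edgeR). *Tsc22d3*, *Ddit4*, *Klf9*, *Mt1*, *Mt2* and *Pdk4* were named after their values were seen. Their part in the *Per1* level of that library was not tested.

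Of 16170 genes with a mean of at least 1 CPM, those with a pattern most like that of *Arntl* over the 6 libraries were *Zfp40* (r = 0.985), *Copg2* (0.980), *Sh3d21* (0.977), *Mrs2* (0.977) and *Arl5b* (0.977). The most opposite were *E430024P14Rik* (r = -0.987), *Atg101* (-0.982), *Rnf181* (-0.971), *Gm29650* (-0.971) and *4933439K11Rik* (-0.970). These genes were picked for their r, so it has no test. None of the clock genes examined was among them. *Copg2* had 53.4 CPM in Atrx-cKO replicate 2 and 71.1 CPM in control replicate 2, the same libraries that bound the *Arntl* range.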

How the data were processed

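Tibia RNA was extracted in bulk and polyA-selected, and libraries were prepared and sequenced by GENEWIZ. The authors deposited raw counts of reads per Ensembl gene, without normalization. The submitters' processing notes name GRCm38 and DESeq2, and the aligner and counter are not given in the sources used here. Entries that name no gene were left out, the largest being reads on no feature (51.6% to 52.4%). The labels number the libraries as replicates. The p-values of the fits set a genotype difference against the spread between libraries, and permutation p-values come from rearranging these libraries.

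Genes were named by GENCODE M21 on GRCm38 (55141 of 55401 identifiers). Counts were fitted with edgeR 4.0.16 in R 4.3.3 (TMM, filterByExpr, quasi-likelihood test, genotype alone), with DESeq2 1.42.0 as the alternative, and the fits were tested on simulated counts. Levels are TMM-scaled CPM, with 0.5 CPM added before log2. Ratios and correlations used exact permutation tests (SciPy 1.17.1). Intervals for counts are 95% Poisson. All 10 members are named, and other listed genes where |r| with *Arntl* reached 0.9 or by a fixed list. Some further genes were named after their values were seen, as stated with each. Members and lists were chosen with earlier results of these data known. Normalization, filter, test, replicate block, muscle covariate, added CPM and left-out libraries were varied.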

Additional observations from a re-analysis of the deposited data

How the results depend on the processing

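Of the clock genes, 0 of 10 were called under every normalization, filter, test, covariate and left-out library tried. The count over all genes was 3 in the main edgeR fit made here, which is not the study's own count. It was 10 with no filter on low counts, 1 with at least 10 counts in every library, 37 by DESeq2 and 0 with the replicate block. Leaving out 1 library gave from 0 to 5 calls over all genes, with 0 for the fit lacking replicate 1 or 2 of Atrx-cKO or replicate 2 of control and 5 without control replicate 3, and the cause was not tested. The labels do not say whether the replicate numbers pair the libraries. Correlations of deviations were -0.0032, 0.11 and -0.10 for replicates 1 to 3, which cannot settle it. With the replicate block the log2 fold change turned to -0.0065 for *Per1* and -0.046 for *Nr1d2*. With the muscle covariate it turned to 0.10 for *Nr1d1*. With 1 library left out the log2 fold change kept its sign for *Arntl*, and crossed 0 for *Clock* (-0.12 to 0.011), *Cry1* (-0.14 to 0.033), *Per1* (-0.55 to 0.46), *Per2* (-0.10 to 0.44), *Per3* (-0.050 to 0.42), *Nr1d1* (-0.42 to 0.30), *Nr1d2* (-0.27 to 0.32), *Dbp* (-0.35 to 0.53) and *Ciart* (-0.36 to 0.44). The r with *Arntl* crossed 0 without 1 library for *Cry1* (-0.32 to 0.53) and *Ciart* (-0.75 to 0.18), and without the 2 libraries at the ends of *Arntl* it was -0.32 for *Cry1*, 0.23 for *Nr1d1*, 0.094 for *Nr1d2* and 0.16 for *Ciart*. The difference in the log2 ratio of *Dbp* to *Arntl* was 0.24 with 2 CPM added, and ran from -0.41 to 0.88 with 1 library left out. The replicate block leaves it at 0.25 by arithmetic, so that setting is no check of its size. The SD within genotype of *Ciart* was 0.295 with 2 CPM added. Depth was no limit for the members, all of which had at least 89 counts in every library.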
